A study of Mus musculus with 18 samples.

Results

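The 42 genes described here encode the proteins that license replication origins, fire them and build the replication fork, together with enzymes that supply deoxynucleotides. They were taken from a list of gene names, 1 probe per gene, among 19938 genes that had a probe of their own on the arrays, and all 42 were measured. By role it held 14 genes of the prereplicative complex and the MCM2-7 helicase, 8 of origin firing and the active helicase, 8 of the DNA polymerases and primase, 9 of the sliding clamp, its loader, the single-strand binding protein and lagging strand processing, and 3 of nucleotide supply.

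Gene expression was measured on 18 Affymetrix mouse gene arrays in 12 groups. For reprogramming, embryonic fibroblasts of mice with rtTA, a transactivator that responds to doxycycline, at ROSA and with GFP under Nanog control were given a piggyBac transposon with a polycistronic cassette of Oct4, Klf4, c-Myc and Sox2 and an mCherry reporter under the doxycycline-responsive promoter. The OKMS cassette has the short Klf4 cDNA and is called low-KLF4, and the OK+9MS cassette has the long Klf4 cDNA and is called high-KLF4. Both cassettes thus deliver c-Myc, and no array of fibroblasts without a cassette was analysed here. Cells of both cassettes were treated with doxycycline at 1 µg/mL and sorted for mCherry on days 2, 4, 8 and 18. In the study, fully reprogrammed cells were those that gained Nanog-GFP and silenced mCherry. The mCherry+ cells of day 18 were thus cells that had not silenced the reporter by then. Each cassette was measured on 2 arrays for day 8 but on a single array for days 2, 4 and 18, which hence have no replicate of their own. The pluripotent reference had 6 arrays: low-KLF4 iPSC clones A7 and A9, high-KLF4 iPSC clones A10 and H10, and 2 arrays of 1A2 mESCs. The 2 keratinocyte arrays were of primary cells from pups of postnatal day 2, cultured in a low-calcium medium with EGF and cholera toxin, and so were a cultured somatic reference of another lineage. The mCherry+ samples are bulk populations in which fewer cells of a type and less RNA per cell cannot be told apart.

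Replication begins when the origin recognition complex (ORC), with CDC6 and CDT1, loads the MCM2-7 helicase onto DNA in G1. In S phase the kinase CDC7-DBF4 and MCM10 help to turn the loaded helicase into the active CDC45-MCM-GINS (CMG) helicase, behind which the polymerases copy DNA on the PCNA clamp. Many of these genes are transcribed as cells enter S phase under E2F factors, and mouse pluripotent stem cells are known for a short G1 phase and a large share of cells in S phase.

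Because E2F sites are a known element of many of these promoters, the promoters were searched for the E2F-type motifs TTTCCCGC, TTTCGCGC, TTTGGCGC and TTTGCCGC on both strands, from 250 bases before to 50 after the annotated start (RefSeq, GRCm38.p6). A promoter sequence was at hand for 34 of the 42 genes, and 14 of these 34 (41.2%) held at least 1 motif, against 2.6% of 27025 genes with a promoter in the same table. The motifs can overlap each other. The 14 were Orc1, Orc3, Cdc6, Cdt1, Mcm3, Mcm5, Mcm6, Mcm7, Gins3, Pola1, Pold1, Pole2, Rfc3 and Lig1. Shown here are stretches upstream of the start for 6 of them that stand for the origin complex, its loading factor, the helicase and the primase-polymerase, written 5′ to 3′ on the gene's own strand with the motif in capitals. In Mcm5 and Mcm6, 2 motifs on opposite strands overlap, so the capitals run longer.
Orc1 (chr4:108579401-108579453, plus strand): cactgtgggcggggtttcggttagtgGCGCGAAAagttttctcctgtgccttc
Cdc6 (chr11:98907987-98908046, plus strand): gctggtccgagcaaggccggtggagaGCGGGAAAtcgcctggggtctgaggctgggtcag
Mcm5 (chr8:75109330-75109393, plus strand): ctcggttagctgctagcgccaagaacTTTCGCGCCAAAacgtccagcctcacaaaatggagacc
Mcm6 (chr1:128359778-128359841, minus strand): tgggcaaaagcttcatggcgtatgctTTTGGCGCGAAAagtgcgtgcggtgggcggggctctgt
Mcm7 (chr5:138172015-138172074, minus strand): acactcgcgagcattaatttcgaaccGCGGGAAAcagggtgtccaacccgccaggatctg
Pola1 (chrX:93632260-93632319, minus strand): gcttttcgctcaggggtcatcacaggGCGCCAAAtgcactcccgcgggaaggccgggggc
The motif in Orc1 lay 27 to 20 bases before the start, and that in Cdc6 and in Pola1 138 to 131 bases before it. The 14 genes with a motif had a median log2 difference of -1.97 between keratinocytes and pluripotent cells and the 20 without of -1.76. The medians for the mCherry+ arrays against pluripotent cells were -0.80 in both sets. A motif match is a description of the sequence, and binding was not measured.

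The values are the deposited RMA signals, and every difference is on the log2 scale from limma with a standard error (SE) and a Benjamini-Hochberg adjusted p over 23410 probes with a gene symbol. A gene was called at an adjusted p under 0.05. Differences of pluripotent groups use the mean of the mESC, low-KLF4 iPSC and high-KLF4 iPSC means. Array medians over all probes lay between 139.4 and 161.6, and the median offset of all probes from the pluripotent mean was at most 0.10 on each of the 18 arrays. Pluripotency markers were high in the pluripotent arrays (summed signal of 17 genes 58273 to 61770, against 1804 to 1812 in keratinocytes), and keratinocyte markers in keratinocytes (16 genes, 85043 to 87846, against 3526 to 4130 in pluripotent cells).

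The arrays of day 8 stood apart within both cassettes. On array 2 of day 8, all 20 fibroblast markers were lower than on array 1, with a median difference of -2.03 in low-KLF4 and -1.80 in high-KLF4 cells. Their summed signal was 70700 and 67038 on array 1, against 21337 and 24913 on array 2, 43645 to 56649 on days 2 and 4, and 19313 to 31131 in pluripotent cells. The replication genes moved the other way: 37 of 42 in low-KLF4 and 36 of 42 in high-KLF4 cells read higher on array 2. Their medians were 0.48 and 0.36, against 0.01 and -0.0 over all probes. Of 28 mitosis genes, 28 and 26 also read higher on array 2. The shares of all probes that read higher are not given here. Whether these differences share a source was not tested. The keratinocyte arrays also differed in the replication genes, of which 41 of 42 read higher on array 2, with a median of 0.34, against a median difference of 0.01 over all probes. Results of day 8 are therefore given also with array 1 or array 2 alone (chosen after the data were seen). Counts from these and other alternative fits are given without the share of all probes in the same fit. In such counts a shift in the replication genes cannot be told apart from a shift in all probes.

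**Figure D1:**
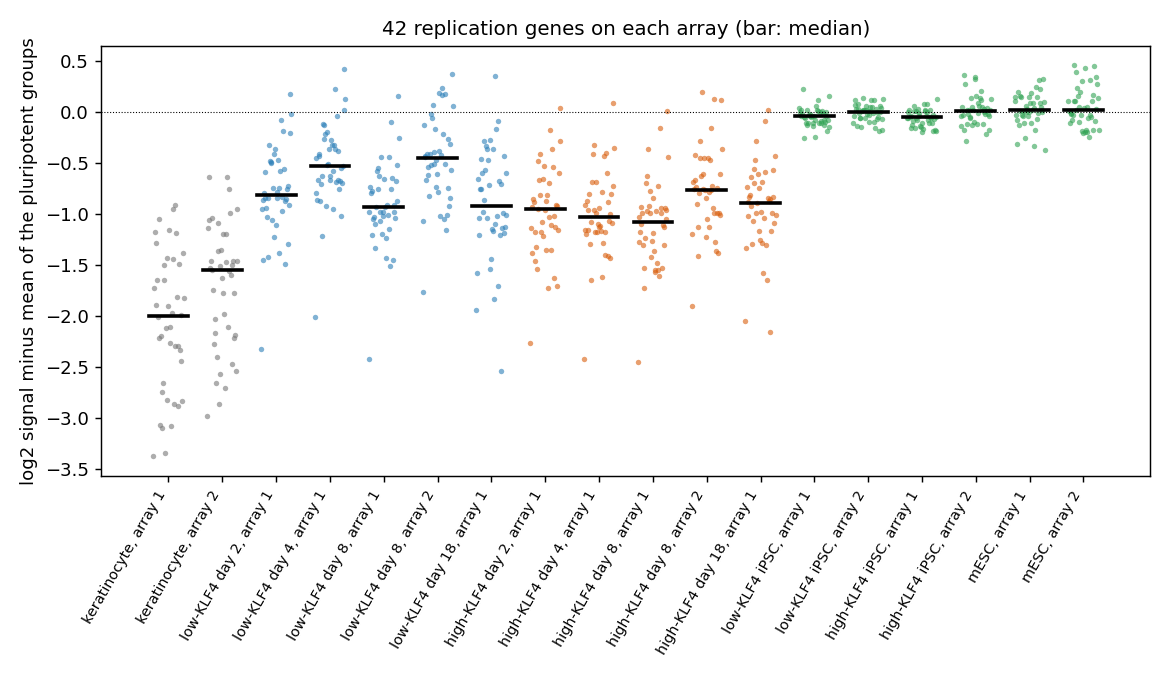
Log2 signal of each of the 42 genes on each of the 18 arrays minus the gene's mean over the pluripotent groups (y axis), with 1 point per gene, a bar at the median, keratinocytes in grey, low-KLF4 in blue, high-KLF4 in orange and pluripotent cells in green. Medians lie at -1.99 and -1.55 in keratinocytes, between -1.07 and -0.45 in mCherry+ cells and between -0.05 and 0.03 in pluripotent cells.

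The replication genes as a group were lowest in keratinocytes, intermediate in mCherry+ cells and highest in pluripotent cells. In 39 of 42 genes the lowest group mean was that of keratinocytes, and in 39 of 42 the highest was a pluripotent group, mESCs in 22 of them. The order held array by array in 25 genes, whose keratinocyte arrays all read below all 10 mCherry+ arrays and these below all 6 pluripotent arrays, against 2.41% of all tested probes. Taken singly, 34 genes read lower in both keratinocyte arrays than in all 10 mCherry+ arrays (14.0% of all probes), and 31 read lower on all mCherry+ than on all pluripotent arrays (9.44%). The 11 genes that overlapped with the pluripotent range were Mcm5, Mcm7, Cdc7, Pola1, Pold1, Pold2, Pole, Pcna, Tyms, Rrm1 and Rrm2. The 8 that overlapped with keratinocytes were Orc2, Orc5, Gmnn, Pold1, Pold2, Pole2, Rfc2 and Rfc4.

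On the log2 scale from the keratinocyte to the pluripotent mean of each gene, the median position in low-KLF4 cells was 56%, 71%, 61% and 50% of the way for days 2, 4, 8 and 18. In high-KLF4 cells it was 46%, 44%, 47% and 49% on the same days. The position differed widely between genes. On day 8 in low-KLF4 cells it ran from 21% for Gmnn, the inhibitor of CDT1, to 123% for Rrm1, the large subunit of ribonucleotide reductase. Gmnn was dim in mCherry+ cells and keratinocytes, so its position is uncertain. Over the 12 group means, Mcm4 followed the mean of the other 41 genes closely (Pearson r = 0.99, a description over groups), and Rrm1 (r = 0.60) and Pold1 (r = 0.66) the least.

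**Figure D2:**
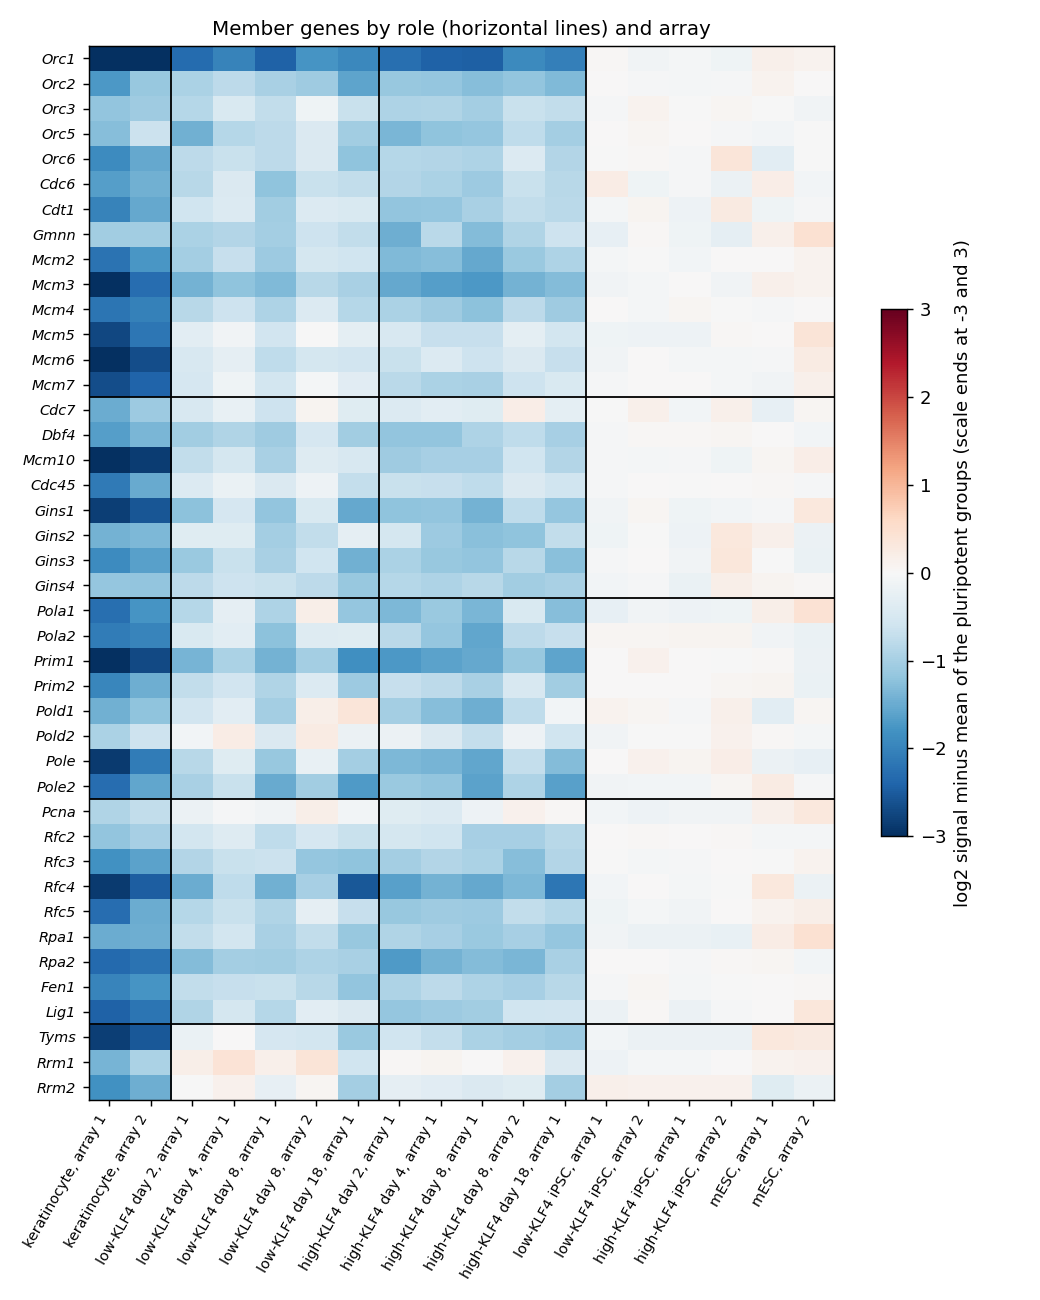
Log2 signal minus the mean of the pluripotent groups for the 42 genes (rows, horizontal lines between the 5 roles) on the 18 arrays (columns, vertical lines between keratinocytes, low-KLF4, high-KLF4 and pluripotent arrays), with blue for lower and red for higher. Orc1 is the darkest row in mCherry+ cells, and Rrm1, Pcna and Pold2 are among the palest.

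Which replication genes separated a cultured somatic cell from pluripotent cells was asked by comparing keratinocytes with the pluripotent groups. All 42 genes were lower in keratinocytes and 0 higher, where 23.4% of all probes were called lower and 20.9% higher. The median difference was -1.79, with a range of -3.17 to -0.79, against 0.02 over all probes. It was -1.87 in the prereplicative group, -1.63 in the firing group, -1.97 in the polymerases, -1.88 in the clamp and lagging strand group and -1.64 in nucleotide supply. Orc1 is the largest subunit of ORC. It read 104 and 136 in keratinocytes and 979.6 to 1194 (median 1067) on the 6 pluripotent arrays. The groups were far apart, and the difference was -3.17 (SE 0.20, limma adjusted p = 5.21e-06). Both keratinocyte values of Orc1 lay below the range of array medians over all probes (139.4 to 161.6), so the size of its difference is uncertain. Mcm10, which assists helicase activation, read 158.5 and 221 in keratinocytes and 1468 to 1837 (median 1556) in pluripotent cells. Its difference was -3.10 (SE 0.18, limma adjusted p = 3.61e-06). Prim1, the catalytic subunit of primase, read 161 and 209 against 1206 to 1474 (median 1376), a difference of -2.89 (SE 0.15, limma adjusted p = 2.21e-06).

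Within each role the genes differed in how far they ranged over the 12 group means. Orc1 had the widest range of the prereplicative group (3.30) and Orc3, another ORC subunit, the narrowest (1.15). In the firing group it was Mcm10 (3.23) against the GINS subunit Gins4 (1.24), and in the polymerases Prim1 (2.96) against Pold2, an accessory subunit of polymerase delta (1.01). In the clamp group the clamp loader subunit Rfc4 (2.74) ranged widest and Pcna, the clamp itself, least (1.06), and in nucleotide supply Tyms, thymidylate synthase, ranged widest (2.98) and Rrm1 least (1.58). The least variable genes were still lower in keratinocytes. Pold2 read 1940.5 and 2416 there and 3482 to 4063 (median 3731) in pluripotent cells, a difference of -0.79 (SE 0.20, limma adjusted p = 0.0116). Pcna read 2935 and 3290.0 in keratinocytes against 4955 to 6871 (median 5169.7), a difference of -0.83 (SE 0.11, limma adjusted p = 0.000307). Pcna had a further probe with nearly the same values, and reads of a near-identical copy cannot be set apart on these probes. Orc3 read 902 and 979.6 in keratinocytes against 1898 to 2208 (median 2022), and Gins4 1180.3 and 1146 against 2295 to 2937 (median 2634), so that these also did not overlap.

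How far the reprogramming cells had reached the pluripotent level was asked next. In low-KLF4 cells on day 8, 29 of 42 genes were lower than in pluripotent cells and 0 higher (14.7% of all probes lower, 12.9% higher), with a median of -0.68. In high-KLF4 cells 36 were lower and 0 higher (18.7% and 17.5% of all probes), with a median of -0.96. With array 1 of day 8 alone the counts were 37 in low-KLF4 and 39 in high-KLF4 cells, and with array 2 alone 23 and 31. In fits that left out array 1 of 1 cassette they were 15 in low-KLF4 and 22 in high-KLF4 cells. Both comparisons share the pluripotent arrays. Of the measured ORC subunits, Orc1, Orc2, Orc5 and Orc6 were lower in both and Orc3 in high-KLF4 cells alone (-0.43 in low-KLF4 cells, limma adjusted p = 0.0742). The loading factors Cdc6 and Cdt1 were lower in both. Not called in both were Mcm5, Cdc7, Pola1, Pold2, Pcna and Rrm1. Mcm7, Orc3, Cdc45, Pold1, Pole, Rfc5 and Rrm2 were called in high-KLF4 cells and not in low-KLF4 cells; the difference between the cassettes was tested directly.

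Orc1 was the lowest of the genes relative to pluripotent cells on day 8. In low-KLF4 cells it read 216, then 268, then 201 and 317 on the arrays of day 8, and 279.8 by day 18. In high-KLF4 cells it read 225, 200.5, 197 and 288, and 260.5 on the same days. All 10 values lay between those of keratinocytes and pluripotent cells. The day 8 differences from pluripotent cells were -2.09 in low-KLF4 (SE 0.20, limma adjusted p = 0.000175) and -2.17 in high-KLF4 cells (SE 0.20, limma adjusted p = 8.73e-05). Rfc4 was next among genes named in both, at -1.22 (SE 0.17, limma adjusted p = 0.00115) and -1.44 (SE 0.17, limma adjusted p = 0.00032). Pole2, an accessory subunit of polymerase epsilon, read 424.5 and 587 in low-KLF4 cells on day 8 and 1119 to 1431 (median 1168) in pluripotent cells. Its difference was -1.27 (SE 0.24, limma adjusted p = 0.00489). Mcm3, a helicase subunit, read 609.5 and 757 in high-KLF4 cells on day 8 and 1861 to 2229.5 (median 1979) in pluripotent cells. Its difference was -1.57 (SE 0.21, limma adjusted p = 0.000601).

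The other subunits of the MCM2-7 helicase differed in how near they were to the pluripotent level. Mcm2 read 1566 and 2314 in low-KLF4 and 1160.5 and 1539 in high-KLF4 cells on day 8. In pluripotent cells it read 3150 to 3630.5 (median 3363), so that no day 8 value reached that range. Mcm5 read 1817 and 2675 in low-KLF4 and 1679.5 and 2229 in high-KLF4 cells on day 8, against 2442 to 3564 (median 2609) in pluripotent cells. The higher low-KLF4 value reached into the pluripotent range and the high-KLF4 values did not. Rrm1 read 3418 and 3982 in low-KLF4 and 3086 and 3327 in high-KLF4 cells, against 2768 to 3368 (median 3030.5). Both low-KLF4 values were above the pluripotent range, both high-KLF4 values lay within it, and the gene was not called.

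Set against keratinocytes, the same cells were higher. On day 8, 34 of 42 genes were higher in low-KLF4 cells and 0 lower (13.5% and 12.4% of all probes), with a median of 1.11. In high-KLF4 cells 28 were higher and 0 lower (13.1% and 11.4%), with a median of 0.95. With array 1 of day 8 alone the counts were 34 and 27, and with array 2 alone 38 and 36. Without keratinocyte array 1 they were 19 and 16, and without high-KLF4 array 2 of day 8 the high-KLF4 count was 17. The 3 largest differences in each cassette lay in the helicase and its activator. Mcm6 read 258 and 349 in keratinocytes, 1304 and 1538 in low-KLF4 and 1427 and 1619 in high-KLF4 cells. Its differences from keratinocytes were 2.24 (SE 0.16, limma adjusted p = 3.42e-05) and 2.34 (SE 0.16, limma adjusted p = 2.83e-05). Mcm10 read 814 and 1227 in low-KLF4 and 806 and 1054 in high-KLF4 cells, differences of 2.42 (SE 0.22, limma adjusted p = 0.000134) and 2.30 (SE 0.22, limma adjusted p = 0.000192). Mcm7 in low-KLF4 cells was higher by 2.23 (SE 0.18, limma adjusted p = 7.34e-05), and Mcm5 in high-KLF4 cells by 1.96 (SE 0.25, limma adjusted p = 0.000853). At the other end, Gmnn read 116 and 116 in keratinocytes, 117 and 156 in low-KLF4 and 96.8 and 128 in high-KLF4 cells, so that the high-KLF4 values overlapped with keratinocytes and the low-KLF4 values lay just above them. Neither difference was called (0.22 with SE 0.19 in low-KLF4 and -0.06 with SE 0.19 in high-KLF4 cells). These Gmnn signals lay within or below the range of array medians over all probes (139.4 to 161.6), so a difference may be hard to see.

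Averaged over both cassettes, the median level changed little over the days. In a fit of both cassettes with a cassette term, 35 of 42 genes were lower than in pluripotent cells on day 2 (18.5% of all probes lower, 27.8% higher), 34 on day 4 (16.2% lower, 21.7% higher) and 36 on day 18 (18% lower, 15.1% higher), with 0 genes higher each time. The medians were -0.88, -0.77 and -0.97. Without the high-KLF4 array of day 4 the day 4 count was 16. Among the 3 largest differences on each day were Orc1, at -2.29 (SE 0.18), -2.21 (SE 0.18) and -1.99 (SE 0.18), and Prim1, at -1.55 (SE 0.17), -1.28 (SE 0.17) and -1.70 (SE 0.17). The limma adjusted p of these lay between 4.30e-07 and 5.81e-05. The other named differences were Rfc4 on day 2, at -1.55 (SE 0.18), and on day 18, at -2.35 (SE 0.18, limma adjusted p = 1.01e-06), and Mcm3 on day 4, at -1.43 (SE 0.18). Prim1 read 520.4, 706, 505 and 669.9, and 382 in low-KLF4 cells over days 2, 4, 8 and 18, and 413, 445, 466 and 622, and 456.5 in high-KLF4 cells. All were below the pluripotent and above the keratinocyte values.

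Between consecutive days few genes were called. From day 2 to day 4, 0 genes were called higher or lower (0.0427% and 0.0598% of all probes), 1 gene had an unadjusted p under 0.05, and the median was 0.10. From day 4 to day 8, 0 were called either way (0.107% and 0.0683% of all probes), with a median of -0.01. Few of all probes were called in these steps, so the 0 calls do not show a flat level. In low-KLF4 cells 42 genes rose from day 2 to day 4 (median 0.22), and 33 fell and 9 rose to day 8 (-0.14). In high-KLF4 cells 19 rose and 23 fell (-0.03), then 25 rose and 17 fell (0.08). These steps by cassette were not tested, and the shares of all probes that rose or fell in them are not given here. From day 8 to day 18, 2 of 42 genes rose (4.76%, against 7.82% of all probes) and 3 fell (7.14%, against 11%), with a median of -0.12. Both shares were below those of all probes, so such changes were not particular to these genes. Pold1, the catalytic subunit of polymerase delta, read 469 and 1063 on day 8 and 1209 on day 18 in low-KLF4 cells, and 339.7 and 556, then 890.4, in high-KLF4 cells. It rose by 0.91 (SE 0.27, limma adjusted p = 0.0296). Gins2, a subunit of the CMG helicase, read 604 and 734, then 1008, in low-KLF4 cells and 508 and 525, then 729, in high-KLF4 cells. It rose by 0.55 (SE 0.14, limma adjusted p = 0.0164). In both genes the day 18 value of each cassette exceeded both of its day 8 values, though for Pold1 the arrays of day 8 spread widely.

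The genes that fell from day 8 to day 18 were a clamp loader subunit and both subunits of ribonucleotide reductase, the enzyme that makes deoxynucleotides. Rfc4 read 1998.5 and 2722, then 938.5, in low-KLF4 cells and 1894 and 2132, then 1223, in high-KLF4 cells, against 4842 to 6776 (median 5316) in pluripotent cells and 742 and 989 in keratinocytes. It fell by 1.01 (SE 0.19, limma adjusted p = 0.0023), and the low-KLF4 value of day 18 lay within the keratinocyte values. Rrm2 read 3804 and 4723, then 2244, in low-KLF4 cells and 3340.0 and 3531, then 2244, in high-KLF4 cells, against 3508 to 5044 (median 4938) in pluripotent cells. It fell by 0.77 (SE 0.16, limma adjusted p = 0.00438). Rrm1 read 2034 and 2269 on day 18, below all 6 pluripotent arrays, and fell by 0.68 (SE 0.13, limma adjusted p = 0.00222). With array 1 of day 8 alone, 5 genes rose and 3 fell, and with array 2 alone 0 rose and 15 fell. Without the high-KLF4 array of day 18, 0 rose and 5 fell, and without the low-KLF4 array of day 18, 1 rose and 0 fell. Without array 1 of day 8 in either cassette 1 rose. The 3 genes that fell stayed called with either array of day 8 alone, at -0.86 and -1.17 for Rfc4, -0.67 and -0.86 for Rrm2 and -0.60 and -0.76 for Rrm1, while Pold1 (0.43) and Gins2 (0.47) were not called with array 2 alone.

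**Figure D3:**
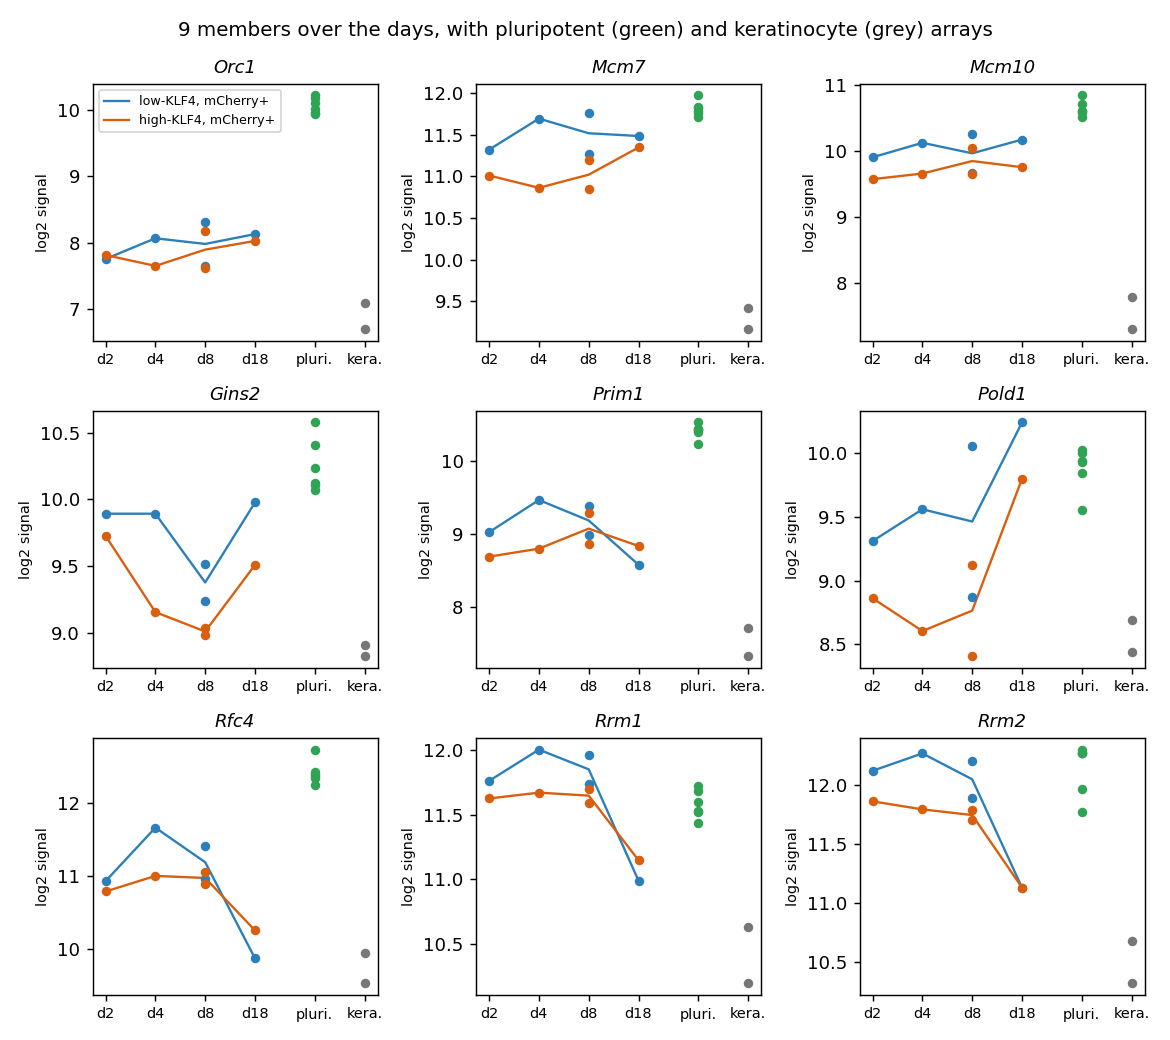
Log2 signal (y axis) of 9 genes in low-KLF4 (blue) and high-KLF4 (orange) mCherry+ cells on days 2, 4, 8 and 18, with the 6 pluripotent arrays (green) and the 2 keratinocyte arrays (grey). Points are arrays and lines join the mean of each day, and Rfc4, Rrm1 and Rrm2 drop on day 18 while Pold1 and Gins2 rise.

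Whether the cassettes differed was asked first on day 8. No gene was called in the fit without a replicate block. By limma 0 of 42 were lower and 0 higher in high-KLF4 than in low-KLF4 cells (1.29% of all probes lower, 2.71% higher). Of the 42, 5 had an unadjusted p under 0.05. The median was -0.23 (-0.03 over all probes) and 38 of 42 differences were below 0. Pold1 had the largest difference, -0.70 with a 95% interval of -1.54 to 0.14, and that of Orc1 was -0.09 (-0.65 to 0.48). By array number, 37 of 42 genes read lower in high-KLF4 cells on array 1 and 37 on array 2, with medians of -0.22 and -0.28. The labels do not say that equal numbers mark a shared experiment. A fit with a replicate block, given at the end, did call genes lower in high-KLF4 cells, so the count of 0 depends on the fit. Without low-KLF4 array 1 of day 8, 5 genes were called lower, and with array 2 of both cassettes alone 4 were. The cassette difference on day 8 was then set against the same difference in the iPSC clones derived with each cassette. By this interaction 0 genes were called (0.671% of all probes higher, 0.154% lower) and 3 had an unadjusted p under 0.05, with a median of -0.26. For day 8 and the interaction, the shares of all probes below 0 or at an unadjusted p under 0.05 are not given here.

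Over all 4 days, with 5 arrays per cassette and stage as a term, 4 of 42 genes were lower in high-KLF4 cells and 0 higher (1.79% and 4.4% of all probes). The median was -0.21 (-0.02 over all probes), 41 of 42 differences were below 0, and 19 had an unadjusted p under 0.05. The shares of all probes for these counts are not given here. The exception was Cdc7, the kinase that triggers firing, at 0.09 (95% interval -0.22 to 0.39). In low-KLF4 cells Mcm7 read 2558, 3313, 2476 and 3473 (the arrays of day 8), and 2866 over the days. In high-KLF4 cells it read 2062.5, 1861, 1843 and 2340.3, and 2604. Its mean was lower in high-KLF4 cells on each day, although the cassettes overlapped over all days, with a difference of -0.46 (SE 0.11, limma adjusted p = 0.0298). Mcm2 read 1649, 2064, 1566 and 2314, and 2218 in low-KLF4 and 1339.8, 1374, 1160.5 and 1539, and 1775 in high-KLF4 cells. Its difference was -0.45 (SE 0.12, limma adjusted p = 0.0379). Gins2 read 951, 951, 604 and 734, and 1008 in low-KLF4 and 848, 571, 508 and 525, and 729 in high-KLF4 cells. Its difference was -0.42 (SE 0.10, limma adjusted p = 0.0312). Rpa2, a subunit of the single-strand binding protein, completed the 4 at -0.31 (SE 0.06, limma adjusted p = 0.0098). Its values were 618, 751, 739.9 and 804, and 766 against 464, 563, 613 and 584, and 766, so that the cassettes met on day 18.

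The size of the cassette difference varied by day. For days 2, 4, 8 and 18 the median was -0.16 (35 of 42 genes below 0), -0.46 (41 of 42), -0.23 (38 of 42) and -0.01 (23 of 42). The medians over all probes were 0.02, -0.03, -0.03 and -0.04. The shares of all probes below 0 on each single day are not given here. Of these days only day 8 has replicates, so the differences between days were not tested. A total of 19 genes were lower in high-KLF4 cells on all 4 days, against 15.6% of all probes, though Rpa2 and Rrm2 were level to the second decimal on day 18. Of the MCM2-7 helicase Mcm2, Mcm3, Mcm4, Mcm5 and Mcm7 were among them, and Mcm6 was not, at 0.10 on day 8. The count of 4 rests on single arrays: it was 0 without either array of day 4, 11 without low-KLF4 array 1 of day 8, and 1 without low-KLF4 array 2 or high-KLF4 array 1 of day 8. It was 7 with array 1 of day 8 alone, 9 with array 2 alone, 0 without day 4 and 0 without day 8. In the same arrays the summed signal of fibroblast markers on days 2 and 4 was 43645 and 44457 in low-KLF4 cells. In high-KLF4 cells it was 52203 and 56649. On the arrays of day 8 it was 70700 and 21337 in low-KLF4 against 67038 and 24913 in high-KLF4 cells. On day 18 it was 44939 against 45312. Dcn within these sums read 437 and 612 against 5461 and 6211 on days 2 and 4. Over the days 12 of the 20 marker differences were above 0 and 8 below, with a median of 0.08. Of the 20, 1 was called higher (5%, against 4.4% of all probes), Dcn at 2.03. Of 16 keratinocyte markers, 10 were higher in high-KLF4 cells (62.5%, against 4.4% of all probes). Their part in the cassette difference was not tested.

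**Figure D4:**
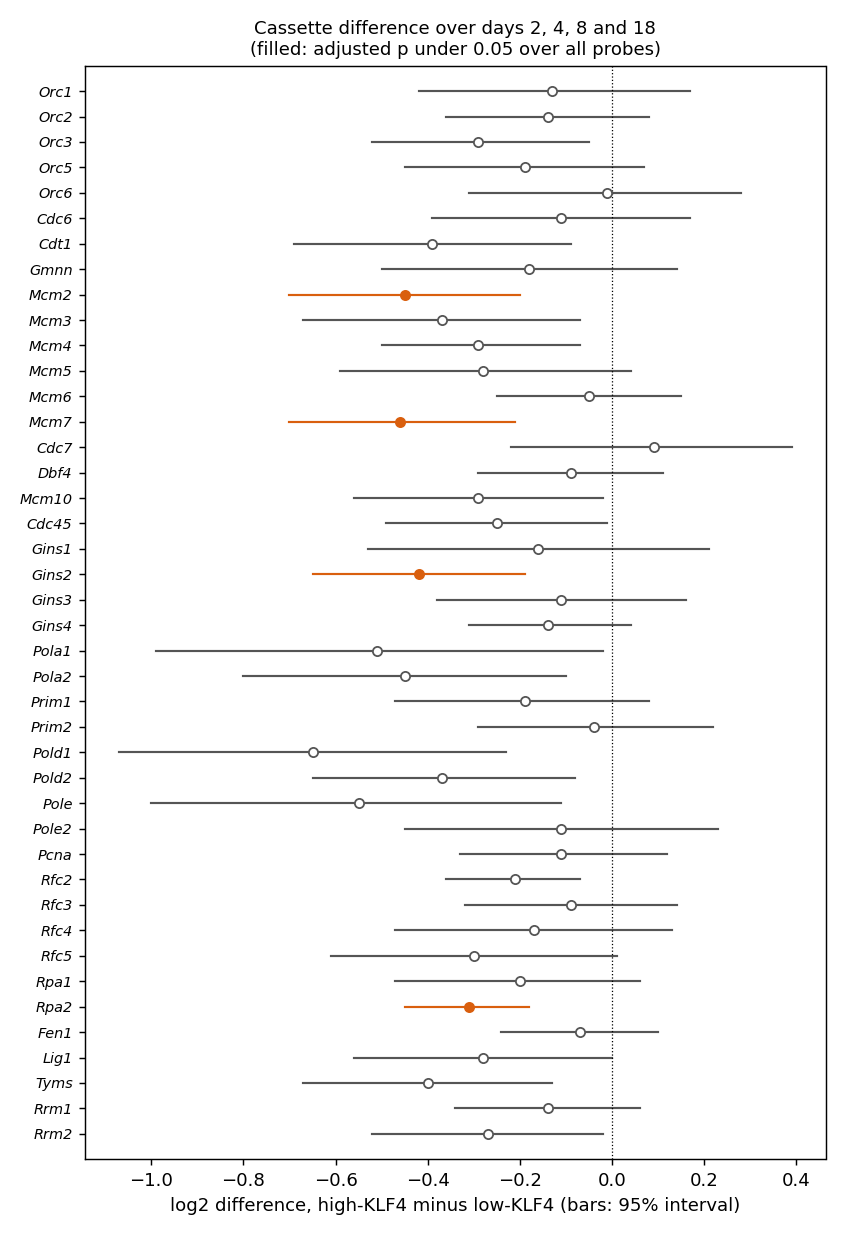
Log2 difference of high-KLF4 minus low-KLF4 mCherry+ cells over days 2, 4, 8 and 18 for each of the 42 genes (points) with 95% intervals (bars), filled and orange where the limma adjusted p was under 0.05. Points lie left of 0 for 41 of 42 genes, and Mcm2, Mcm7, Gins2 and Rpa2 are filled.

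The iPSC clones were close to mESCs. Of 42 genes, 2 were lower in the 4 clones than in the 2 mESC arrays and 0 higher (2.28% and 2.02% of all probes), with a median of -0.06. Rpa1, the large subunit of the single-strand binding protein, read 1346 to 1460.5 in the clones and 1828 and 2144 in mESCs. Its difference was -0.51 (SE 0.10, limma adjusted p = 0.0248). Tyms read 1452 to 1564 in the clones and 2062 and 1996 in mESCs, a difference of -0.45 (SE 0.09, limma adjusted p = 0.0275). The clones and mESCs did not overlap in either gene. The count was 0 without any 1 of the 4 clones or without mESC array 2, and 1 without mESC array 1.

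Other genes of replication, with firing, checkpoint, repair and chromatin roles, were listed beside the 42. Of 45 measured, 35 were lower and 2 higher in keratinocytes than in pluripotent cells (77.8% and 4.44%, against 23.4% and 20.9% of all probes), with a median of -1.32. Ticrr, an origin firing factor, was lower by 3.24 (adjusted p = 0.000166, limma), and Pold4, the smallest subunit of polymerase delta, was the largest of those higher, at 2.25 (adjusted p = 2.76e-06, limma). On day 8, 18 were lower and 2 higher in low-KLF4 cells than in pluripotent cells (40% and 4.44%, against 14.7% and 12.9% of all probes), and 24 were lower and 0 higher in high-KLF4 cells (53.3% lower, against 18.7%). Over the days 5 were lower in high-KLF4 than in low-KLF4 cells and 0 higher (11.1% lower, against 1.79% of all probes), the largest being Cdca7, an activator of the chromatin remodeller Hells, at -0.88 (adjusted p = 0.0048, limma).

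Of 15 genes of the E2F and RB family, which control the transcription of replication genes, 9 were lower and 1, Rbl2, was higher in keratinocytes than in pluripotent cells (60% and 6.67%, against 23.4% and 20.9% of all probes). On day 8, 4 were lower and 2 higher in low-KLF4 cells (26.7% and 13.3%, against 14.7% and 12.9% of all probes), and 7 lower and 2 higher in high-KLF4 cells (46.7% and 13.3%, against 18.7% and 17.5%). Over the days 2 were lower in high-KLF4 than in low-KLF4 cells (13.3%, against 1.79% of all probes), with E2f1, an activator of S phase genes, at -0.42 (adjusted p = 0.0218, limma). From day 8 to day 18 Rb1, which restrains E2F factors, fell by 2.21 (adjusted p = 0.000388, limma) while 3 of the 15 fell and 1 rose (20% and 6.67%, against 11% and 7.82% of all probes).

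Most genes of the mitosis list act after replication. In keratinocytes all 28 were lower than in pluripotent cells (23.4% of all probes), with a median of -2.20. Against keratinocytes all 28 were higher in low-KLF4 and 25 in high-KLF4 cells on day 8 (13.5% and 13.1% of all probes). Against pluripotent cells 9 were lower in low-KLF4 cells on day 8 and 18 in high-KLF4 cells (32.1% and 64.3%, against 14.7% and 18.7% of all probes), with medians of -0.48 and -0.86. Over the days 1 was lower in high-KLF4 cells (3.57%, against 1.79% of all probes), the kinase gene Aurkb at -0.60 (adjusted p = 0.0168, limma), with a median of -0.28. Of 17 growth arrest genes, 8 were higher and 0 lower in keratinocytes than in pluripotent cells (47.1% higher, against 20.9% of all probes). Between the cassettes over the days 0 of the 17 were called by limma (4.4% of all probes higher, 1.79% lower). Of the 17, 4 had an unadjusted p under 0.05, a count given without its share of all probes.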

How the data were processed

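RNA of 18 samples was hybridised to Affymetrix mouse gene arrays. The authors made the values with RMA in GeneSpring (background correction, quantile normalization and summary per transcript cluster), and the deposited values are intensities on a linear scale, of which log2 was taken here. Quantile normalization gives all arrays nearly the same distribution, so a change shared by most genes cannot be seen. No detection call is given. The genome build of the array annotation is not given in the sources used here.

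Tests covered the 23410 of 28853 probes that had a gene symbol, 21789 of them a single one and 1621 several. Each of the 42 genes was read from its single-symbol probe, and Pcna, which had 2, from the brighter. The members and all gene lists were chosen with earlier results of these data known, so that no list is independent evidence. Groups came from the sample labels, and the study's fibroblast, day 6 and marker-sorted arrays were not analysed here.

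Comparisons of day 8, iPSC, mESC and keratinocyte groups came from a limma fit (limma 3.58.1, R 4.3.3) with 12 group means (6 residual and 2.25 prior degrees of freedom). Comparisons of days and of the cassettes over days came from a limma fit of 6 stages with a cassette term (11 residual and 2.35 prior degrees of freedom). The Benjamini-Hochberg method adjusted p over all 23410 probes, with a threshold of 0.05. Of 15 comparisons, several share the pluripotent or keratinocyte arrays. For day 8, mESCs and keratinocytes the study describes independent experiments, and the 2 arrays of each iPSC group were different clones. The 12-group fit pools the spread of the 6 groups with 2 arrays. The median absolute difference of the 42 genes within a pair was 0.49 in low-KLF4 and 0.36 in high-KLF4 cells on day 8. It was 0.34 in keratinocytes, 0.13 in mESCs and 0.07 in both iPSC groups. The SE and p-values for day 8 and keratinocytes thus rest in part on the smaller spread of clones and mESCs. In the fit of 6 stages, iPSC clones and mESCs formed a single stage, and days 2, 4 and 18 had a single array per cassette. Its residual spread therefore included differences between iPSC clones and mESCs, and changes of the cassette difference between days. The p-values for days and for the cassettes over days thus do not rest on replicates alone. The small number of arrays limits the precision in both fits.

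By rule, each comparison's called genes with the 3 largest differences each way were named, with the genes of widest and narrowest range in each role, and any other gene was picked with its values in view. Results were recomputed with limma-trend, with quantile normalization applied again, without the 30% dimmest probes, and with fits of fewer arrays, the methods' t-test, a replicate block and each array left out. The fits were tested on simulated data. Python 3.11.15, pandas 2.3.3, numpy 2.4.6 and matplotlib 3.10.9 were used for descriptions and figures.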

Additional observations from a re-analysis of the deposited data

Results flagged for a closer look

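The median change of the 42 genes from day 2 to day 4 was 0.22 in low-KLF4 cells and -0.03 in high-KLF4 cells. It is listed because the medians had opposite signs, although in high-KLF4 cells 19 genes rose and 23 fell, so that no common direction was seen there. Each cassette had 1 array per day, and the difference was not tested.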

How the results depend on the processing

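Of 518 alternative values of 34 results on named genes, 456 kept their direction and their side of the threshold. A further 62 kept the direction but lost the call, and 0 reversed. The counts of this section are given without the share of all probes in the same fit. Leaving out each array gave 40 to 42 genes lower in keratinocytes than in pluripotent cells, 15 to 34 lower in low-KLF4 and 22 to 37 in high-KLF4 cells on day 8, and 28 to 36, 16 to 34 and 25 to 35 lower on days 2, 4 and 18. Against keratinocytes it gave 19 to 36 higher in low-KLF4 and 16 to 31 in high-KLF4 cells. It gave 0 to 5 lower in high-KLF4 than in low-KLF4 cells on day 8, 0 to 11 over the days, 0 to 1 lower in iPSC clones than in mESCs, and 0 to 3 rising and 0 to 5 falling from day 8 to day 18.

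With the methods' t-test on 2 against 2 arrays, 0 genes were called higher than in keratinocytes in either cassette on day 8 after adjustment, while 19 in low-KLF4 and 16 in high-KLF4 cells were higher at an unadjusted p under 0.05. By that test in iPSC clones 3 were higher and 1 lower than in mESCs. Limma-trend gave 1 lower in the clones. A second quantile normalization gave 3 genes lower in high-KLF4 cells on day 8 and 8 over the days. The fit of the 10 mCherry+ arrays alone gave 0 over the days and 1 rising from day 8 to day 18, and without the cassette term 0 rose. With array 1 of day 8 alone, 5 rose from day 8 to day 18, 1 fell from day 4 to day 8, and 7 were lower in high-KLF4 cells over the days. With array 2 alone, 0 rose and 15 fell from day 8 to day 18, 1 rose and 1 fell from day 4 to day 8, and 4 were lower in high-KLF4 cells on day 8 and 9 over the days. Without day 4 or without day 8, 0 were lower over the days. The cause was not tested in any of these. Leaving out each array gave medians of -0.06 to 0.25 for day 4 against day 2 and of -0.17 to 0.13 for day 8 against day 4. Medians changed sign for day 18 against day 8 with array 1 of day 8 alone (0.10), for day 4 against day 2 without the low-KLF4 array of day 4 (-0.06), and for day 8 against day 4 without that array (0.13), without array 1 of day 8 in low-KLF4 or in high-KLF4 cells (0.06 each) and with array 2 alone (0.19).

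The labels do not say that equal array numbers mark a shared experiment. The deviations of low-KLF4 and high-KLF4 day 8 arrays from their group means had r = 0.735 over 23410 probes, a hint from the data, and those of the other group pairs lay between -0.0329 and 0.0206. With a replicate block of the day 8 arrays, 9 genes were lower in high-KLF4 than in low-KLF4 cells on day 8.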
